A study of Mus musculus with 12 samples.

Results

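The Hox genes described here are the 39 genes in the deposited gene models whose name is Hox followed by a cluster letter from a to d and a number, out of 35924 named genes and 22514 genes with a coding transcript. They were chosen by name, with no measured value. RNA of the nucleus accumbens (NAc), the ventral part of the striatum, was sequenced from 12 pools of mice aged 8 to 10 weeks, labelled C57BL/6 and given as C57BL/6 J in the study's methods, each pool holding tissue of 3 to 5 animals by its label. There were 3 pools for each of 4 groups. Repeated cocaine mice had 20 mg/kg by intraperitoneal injection on each of 7 days, and their saline controls had saline on the same 7 days. Acute cocaine mice had saline for 6 days and cocaine at 20 mg/kg on 1 day, with a saline group of their own, and all tissue was taken 24 h after the last injection. The labels name no engineered allele in any group. The models analysed here belong to no single pool and gave no value for any pool. Depth, the level of a Hox gene, markers of the tissue and the effect of cocaine were therefore not analysed here. No test between groups was made. The values that follow are counts and distances read from 1 set of models and have no replicate error.

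Hox genes encode transcription factors that bind DNA through the homeodomain, a stretch encoded by a conserved sequence, the homeobox. They pattern the body from head to tail, and their order along each cluster follows the order in which they become active along the embryo, with low numbers towards the head and high numbers towards the tail. Genes of the same number in different clusters, called paralogues, descend from 1 ancestral gene through duplication of the whole cluster. In the embryonic nervous system Hox genes are known for setting the identity of hindbrain segments and of spinal motor neurons, and the forebrain, to which the NAc belongs, lies ahead of the part of the neural tube that they pattern.

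The 39 genes lay in 4 clusters on the mm9 (NCBIM37) build, each on a chromosome of its own. Cluster A, with 11 genes, took up 105432 bases on the minus strand at chr6:52105366-52210797. Cluster B, with 10 genes, took up 173941 bases on the plus strand at chr11:96055630-96229570. Cluster C held 9 genes in 115713 bases on the plus strand at chr15:102751562-102867274, and cluster D held 9 genes in 96834 bases on the plus strand at chr2:74506367-74603200. Cluster B was thus the longest and the least dense, with 5.75 Hox genes per 100 kb, against 10.4 in cluster A, 9.29 in cluster D and 7.78 in cluster C. Of the 52 positions that 13 numbers in 4 clusters allow, 13 held no Hox gene. Cluster A had no gene of number 8 or 12, cluster B none of 10, 11 or 12, cluster C none of 1, 2, 3 or 7, and cluster D none of 2, 5, 6 or 7. Numbers 4, 9 and 13 were present in all 4 clusters, 7 numbers were present in 3 clusters, and numbers 2, 7 and 12 were present in 2.

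**Figure D1:**
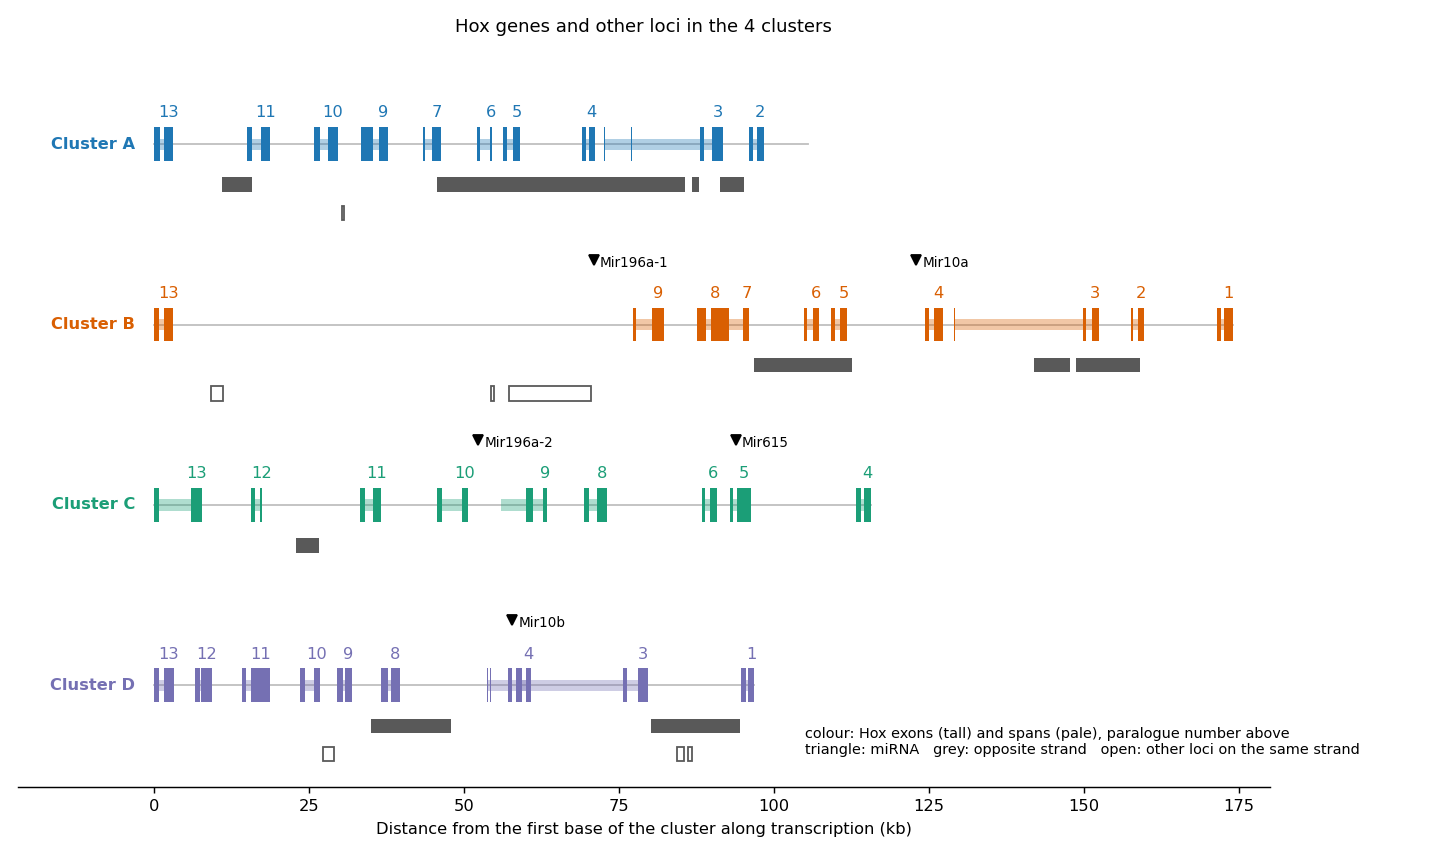
Maps of the 4 Hox clusters, drawn for 38 Hox genes, with the distance along transcription from the first base of each cluster in kb on the x axis; tall boxes are exons and pale boxes the span of the longest coding transcript of each gene, with its paralogue number above. Grey boxes are loci on the opposite strand, open boxes other loci on the same strand and triangles miRNAs; in every cluster the numbers fall from 13 on the left, and cluster B has a wide space between Hoxb13 and Hoxb9.

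In each cluster all Hox genes were transcribed from the same strand, which made 39 of 39. Neighbouring coding genes lay on the same strand in 51.6% of 22492 neighbouring pairs in the genome, a share that counts every coding gene, whereas the 35 Hox pairs were taken among Hox genes alone. Read in the direction of transcription, the numbers fell from 13 to 1, or to 4 in cluster C. When the genes were placed by their 3′ ends, all 35 neighbouring pairs were in the order of their numbers. When they were placed by their outermost 5′ ends, 33 of 35 pairs were. The exceptions were Hoxa3, whose first start lay upstream of the start of Hoxa6, and Hoxd3, whose first start lay upstream of that of Hoxd4. Both are genes of number 3, and the same transcripts appear again among the read-through models.

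The genes were closely spaced. Between the coding transcripts of neighbouring Hox genes there were 5309 bases at the median of 35 pairs, with quartiles of 2993 and 10867.5 bases, against 17716 bases for 11615 neighbouring pairs of coding genes on one strand. The gap was under that genome median in 34 of 35 Hox pairs. The exception was Hoxb13 to Hoxb9, separated by 74061 bases, where cluster B has no gene of number 10, 11 or 12. Hoxb13 is known for its role at the tail end of the body axis and in the prostate, and it stood apart from the other genes of its cluster by more than any other neighbour. The shortest gaps without overlap were 1253 bases from Hoxa11 to Hoxa10, 1687 bases from Hoxb4 to Hoxb3 and 1702 bases from Hoxa6 to Hoxa5. In 3 pairs the coding transcripts overlapped, namely Hoxa4 with Hoxa3, Hoxb8 with Hoxb7 and Hoxd4 with Hoxd3, while among all neighbouring pairs on one strand 3.03% did. Cluster C had no overlapping pair and the widest spacing, with a median gap of 8512.5 bases against 4164.5 in A, 4565.5 in D and 5309 in B. In cluster D the genes of high number stood close together, with gaps of 2657 to 4874 bases between neighbours from Hoxd13 to Hoxd8. With neighbours taken by 3′ ends, the gaps were 14044 bases from Hoxd8 to Hoxd4 and 14705 from Hoxd3 to Hoxd1. The stretch from Hoxd8 to Hoxd4 was not free of coding transcripts. Hoxd8 ended at base 74545990, and the coding transcript ENSMUST00000111983 of Hoxd3 began inside the stretch, at base 74549986. The width of 14044 bases thus depends on the order by 3′ ends. Hoxd13 and its neighbours are known for patterning the digits. With transcripts that lack a protein identifier included, the median gap over all clusters was 4230 bases and Hoxd11 with Hoxd10 overlapped as well.

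**Figure D2:**
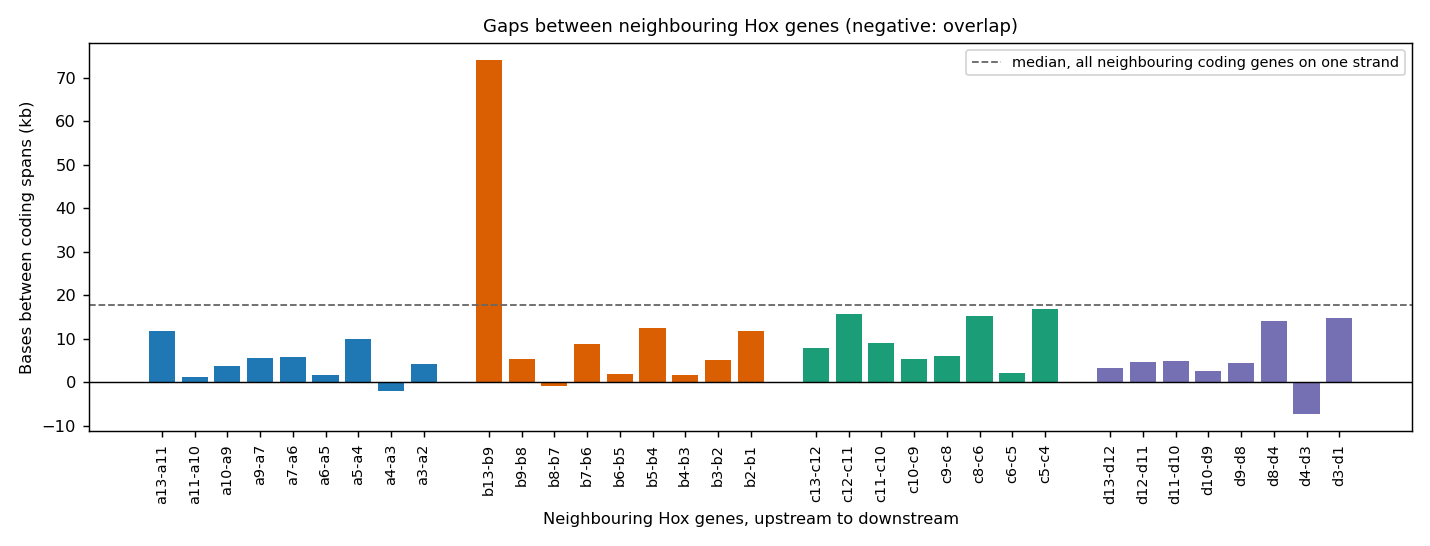
Bars give the bases between the coding spans of neighbouring Hox genes in kb, listed in the direction of transcription and coloured by cluster, with negative bars for overlaps; the dashed line is the median of all neighbouring coding genes on one strand. The bar of Hoxb13 to Hoxb9 rises to 74 kb, the other 33 bars drawn stay under the line, and the 3 overlapping pairs fall below 0. The line counts every coding gene, whereas the bars were taken among Hox genes alone.

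The gene beyond each end of a cluster differed between the clusters. Evx1 and Evx2, homeobox genes descended from the same ancestral array, lay beyond the number 13 end of clusters A and D on the opposite strand. Evx2 was 8752 bases from Hoxd13, and Evx1 was 52694 bases from Hoxa13. Beyond the low-numbered end of cluster A stood Skap2 at 142817 bases and beyond that of cluster B its relative Skap1 at 96336 bases, both adaptor proteins of immune cell signalling. Ttll6 lay 28864 bases from Hoxb13, Mtx2 60659 bases from Hoxd1 and Smug1, a DNA repair enzyme, 116463 bases from Hoxc4. The nearest coding model of all was AC160979.1, a short model of 106 bases on the opposite strand, 310 bases before Hoxc13.

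Hox genes had a simple exon structure. The longest coding transcript had 2 exons in 34 of 39 genes (87.2%), while 9.06% of all coding genes had such a transcript. No Hox gene was made of a single exon, against 13.3% of all coding genes. The 5 exceptions were Hoxc9 with 3 exons, Hoxa3, Hoxb3 and Hoxd3 with 4 each, and Hoxd4 with 6, so that every gene of number 3 was among them. Over all 55 coding transcripts the median was 2 exons, against 7 for the 50689 coding transcripts in the genome. The genes were also short in span, with a median of 3319 bases against 15035.5. Their spliced length was close to that of other genes, with medians of 2136 bases (SD 635, n = 39 genes) and 2302 bases. Introns, counted once for each coding transcript that holds them, had a median of 926 bases, against 1378 in the genome. Among the genes whose longest coding transcript had 1 intron, its length ran from 159 bases in Hoxd12 to 5251 bases in Hoxc13. Of 66 distinct introns of coding transcripts, 63 began with GT and ended with AG. The others were an intron of 294 bases in Hoxa4 and 1 of 443 bases in Hoxa13, which both began and ended with other letters, and an intron of 52 bases in Hoxb8, which began with CT and ended with AG.

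The homeobox lay in the last exon of every Hox gene. Its core of 12 letters (TGGTT, any base, CA, any base, AA and any base), which encodes part of the helix that reads the DNA, was found on the coding strand in frame in the coding sequence of 39 of 39 genes and of 0.931% of 22441 coding genes (coding frames were taken from GENCODE M1 on the same build). A window of 180 bases around the core, the length of a homeobox, was uninterrupted by an intron in all 39. The core began a median of 170 bases into its exon, with a range of 149 to 191 in 38 genes and 263 bases in Hoxb3. In contrast, what followed the core differed by number. From the core to the end of the coding sequence there were 144 to 603 bases in the 8 genes of numbers 1 to 3, 51 to 174 bases in the 15 genes of numbers 4 to 8 and 45 to 72 bases in the 16 genes of numbers 9 to 13. The medians were 519, 129 and 54 bases, and the ranges of neighbouring groups overlapped. Within numbers 1 to 3, the genes of numbers 2 and 3 had 489 to 603 bases. Hoxb1 and Hoxd1 had 144 and 147 bases, inside the range of numbers 4 to 8. Before the last exon the coding sequence ran from 376 bases in Hoxa7 to 976 bases in Hoxa10. The windows of the number 3 genes were the most alike of any number represented in 3 or more clusters, with the same base in all 3 genes at 162 of 180 positions.

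The windows of the number 13 genes, shown here because they shared the fewest positions, have capitals at the 98 of 180 positions that all 4 genes hold in common. They lie at chr6:52208927-52209106 (minus strand), chr11:96057334-96057513, chr15:102757641-102757820 and chr2:74507987-74508166 (plus strand) on mm9. The core follows the first 141 bases of each window.
Hoxa13: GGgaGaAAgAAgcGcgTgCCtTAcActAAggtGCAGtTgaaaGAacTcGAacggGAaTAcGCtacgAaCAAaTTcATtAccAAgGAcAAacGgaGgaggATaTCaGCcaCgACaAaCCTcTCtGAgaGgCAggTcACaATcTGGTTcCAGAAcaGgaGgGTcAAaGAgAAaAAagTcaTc
Hoxb13: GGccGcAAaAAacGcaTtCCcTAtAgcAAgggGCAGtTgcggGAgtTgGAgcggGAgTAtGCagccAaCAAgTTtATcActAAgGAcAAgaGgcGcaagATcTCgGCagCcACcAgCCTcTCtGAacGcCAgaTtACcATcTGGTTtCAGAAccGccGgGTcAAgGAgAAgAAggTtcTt
Hoxc13: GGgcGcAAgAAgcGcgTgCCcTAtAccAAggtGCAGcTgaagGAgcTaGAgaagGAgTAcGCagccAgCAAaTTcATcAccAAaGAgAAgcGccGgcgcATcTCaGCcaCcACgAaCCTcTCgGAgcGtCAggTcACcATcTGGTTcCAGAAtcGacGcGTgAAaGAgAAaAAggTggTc
Hoxd13: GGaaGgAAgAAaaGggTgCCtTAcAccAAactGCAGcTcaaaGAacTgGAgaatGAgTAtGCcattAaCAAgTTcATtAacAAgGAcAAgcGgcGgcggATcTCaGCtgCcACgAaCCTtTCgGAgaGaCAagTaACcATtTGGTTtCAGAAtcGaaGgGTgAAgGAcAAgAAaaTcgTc

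Paralogues shared more of the homeobox than neighbours did. The 42 pairs of genes with the same number in different clusters were identical at a median of 80.6% of the 180 bases, from 67.2% between genes of number 13 to 93.9% for Hoxa3 and Hoxb3. The 29 pairs in one cluster whose numbers were 1 apart had a median of 71.1%, and the 527 pairs of different cluster and different number had 60.6%. Pairs share genes, so these values are given without a test. For 33 of 39 genes the most similar homeobox was that of a paralogue. The 6 exceptions were Hoxb2, closest to Hoxd3, Hoxc5, closest to Hoxc6, and the genes Hoxa6, Hoxa7, Hoxb6 and Hoxb7. Hoxa6 and Hoxa7 were identical at 88.9% of positions, and Hoxb6 and Hoxb7 also at 88.9%, more than the 85% between Hoxa7 and Hoxb7. On codon positions 1 and 2 paralogues were identical at a median of 92.5%, a value that leaves out the third position of codons, where most changes keep the amino acid.

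**Figure D3:**
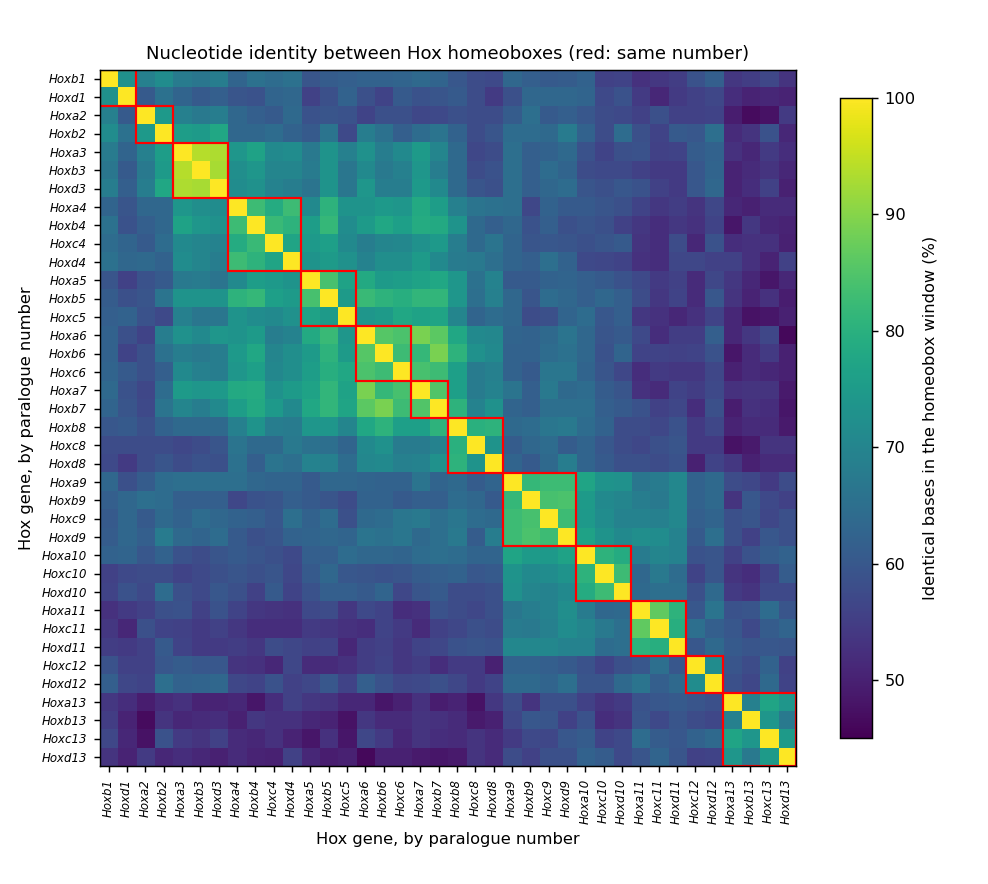
Heat map of the share of identical bases (colour scale, percent) in the 180-base homeobox window for every pair of 38 Hox genes, ordered by paralogue number on both axes; red squares enclose genes of the same number. The square of number 3 is the brightest at 92.8% to 93.9%, and that of number 13 runs from 67.2% to 77.2%, while numbers 6 and 7 are bright across their border.

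The 39 genes had 78 transcripts, of which 55 were coding and 23 carried no protein identifier. Transcripts of coding genes without such an identifier made up 30.2% in the genome and 29.5% here. GENCODE M1 lists 9 of these 23 as protein coding, so that counts of coding transcripts follow the identifiers of the deposited models. A single transcript stood for 22 Hox genes (56.4%), against 43% of all coding genes. The clusters differed, with 32 transcripts in A, 19 in D, 17 in B and 10 in C. In cluster C 8 of 9 genes had 1 transcript, and in cluster A 2 of 11 did, Hoxa2 and Hoxa5. Hoxa2 is known for giving the second branchial arch its identity, and Hoxa5 for its role in the lung.

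The models assign transcripts to TSS groups, each of which shares a transcriptional start site. Hox genes had 71 TSS groups in all, 1 for each of 26 genes and 2 or more for 13 (33.3%), against 43.7% of all coding genes. Hoxa3 and Hoxd3 had 6 each, Hoxb3, Hoxa7, Hoxa9 and Hoxa10 had 4 each, Hoxb8, Hoxd8 and Hoxd11 had 3 each, and Hoxa6, Hoxb1, Hoxb7 and Hoxc4 had 2 each. All genes of number 3 were thus in this group. Their starts were also the farthest apart, over 37485 bases in Hoxa3, 33745 in Hoxd3 and 20443 in Hoxb3, followed by 15459 bases in Hoxc4. The remaining 9 genes had starts within 7530 bases, and in Hoxb8, Hoxd8 and Hoxb1 within 820, 537 and 506 bases. Hoxb1, known for the identity of a single hindbrain segment, had 1 coding start and 1 other start 506 bases downstream.

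Some distant starts gave the same protein. In Hoxd3, 4 coding transcripts began 0, 14799, 24586 and 27690 bases below the first start and carried the same protein identifier. In Hoxb3 coding transcripts with starts 20443 bases apart shared a protein identifier, and in Hoxa3 coding transcripts with starts 24884 bases apart did. The genes of number 3 thus had distant first exons with the same protein identifier. Hoxb8 was similar over a short distance, with 1 protein identifier for starts 820 bases apart. By contrast, the 3 coding starts of Hoxd8, within 537 bases, each had a protein identifier of their own. In Hoxa7 the single coding transcript started 4380 bases below the first start, and the other 4 transcripts, with starts from 0 to 4402 bases, carried no protein identifier, although GENCODE M1 lists 3 of them as protein coding. With coding transcripts alone, 7 genes kept 2 or more TSS groups: Hoxa3, Hoxa9, Hoxa10, Hoxb3, Hoxb8, Hoxd3 and Hoxd8.

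**Figure D4:**
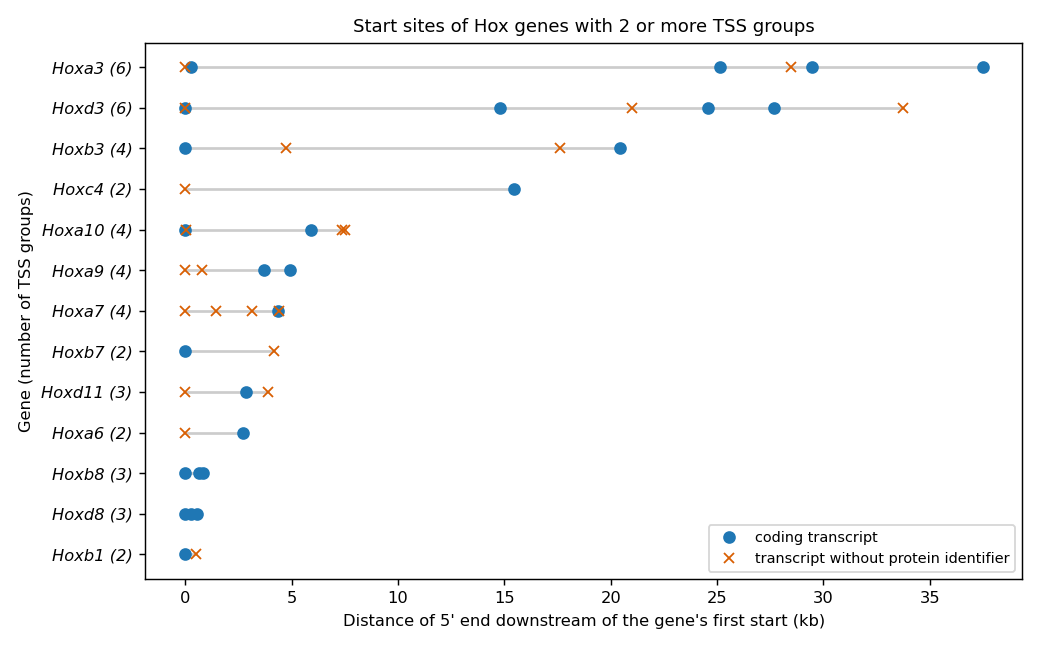
Start sites of the 13 Hox genes with 2 or more TSS groups, with the distance of each 5′ end below the first start of the gene in kb on the x axis and the gene with its number of TSS groups on the y axis. Circles are coding transcripts and crosses transcripts without a protein identifier; the starts of Hoxa3, Hoxd3, Hoxb3 and Hoxc4 spread over 15 kb or more, and those of the other 9 genes stay within 7.5 kb.

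Transcripts of number 3 genes ran across whole neighbours. In 3 transcripts of 2 genes the span contained a complete coding transcript of another Hox gene on the same strand. The coding transcript ENSMUST00000114434 of Hoxa3 covered 44004 bases at chr6:52119061-52163064 with 5 exons of 2541 bases in all, and Hoxa4, Hoxa5 and Hoxa6 lay inside its introns, the longest of which had 17046 bases. A second transcript of Hoxa3, ENSMUST00000142764, had no protein identifier, covered 14186 bases and held Hoxa5 and Hoxa6 in its single intron of 12101 bases. The coding transcript ENSMUST00000111983 of Hoxd3 covered 36346 bases at chr2:74549986-74586331 with 3 exons, and Hoxd4 lay inside an intron of 31611 bases. In all 3 the exons skipped the homeobox of the genes they spanned, since these genes lay inside introns. Hoxb3 had a long first intron as well, of 17618 bases, but no other Hox gene lay in it. Hoxc4 had a transcript without a protein identifier, ENSMUST00000165375, that began 15459 bases above its coding start and 1506 bases below the end of Hoxc5, so that it filled most of the 16965 bases between the coding transcripts of these genes.

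Bases of a coding transcript's exons were shared by 7 transcripts of a neighbouring Hox gene. The last exon of Hoxb8 and the first exon of Hoxb7 had 763 bases in common, since the coding transcript of Hoxb7 began at base 96145877 of chromosome 11 and that of Hoxb8 ended at base 96146639. In GENCODE M1 this transcript of Hoxb7 had another position, so the overlap is that of the deposited models. Hoxb8 is known in mice for its part in grooming behaviour. Hoxd4 shared 1154 bases with the coding transcript ENSMUST00000053932 of Hoxd3, and 952 bases with ENSMUST00000144040, a transcript named for Hoxd3 that had 7 exons, carried no protein identifier and ended inside Hoxd4. Exon 2 of ENSMUST00000053932, at chr2:74566416-74566739, held the homeobox core of Hoxd4, unlike the exons of the 3 read-through transcripts. ENSMUST00000136302, a transcript of Hoxd11 without a protein identifier, shared 104 bases with Hoxd10. These pairs were merged in the deposited models into 3 loci, Hoxb7 with Hoxb8, Hoxd10 with Hoxd11 and Hoxd3 with Hoxd4, so that the 39 genes made up 36 loci. A locus was shared with another coding gene for 6 of 39 Hox genes (15.4%), against 2.92% of all coding genes. Reads that fall in such shared exons cannot be assigned to one gene from their position alone.

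The clusters held 24 other loci, of which 22 had no coding transcript. These were 15 long noncoding loci, 5 miRNAs and 2 loci labelled as pseudogenes. The other 2, 5730596B20Rik and Gm53, were labelled as coding in the models and are named as long noncoding RNAs in RefSeq. Of the 22 noncoding loci 11 lay on the strand opposite to the Hox genes, and all 11 were long noncoding loci, while the 5 miRNAs and both pseudogenes shared the strand of their cluster. Long noncoding loci covered the clusters unevenly. Noncoding spans took up 52.5% of the bases of cluster A, 30.2% of D, 20.0% of B and 3.34% of C, while Hox exons took up 28.3%, 25.3%, 13% and 15.8% in the same order. A noncoding locus on the opposite strand overlapped the span of 13 of 39 Hox genes (33.3%), against 13.4% of all coding genes. These were 7 genes in cluster A, 4 in B, 2 in D and 0 in C. For Hoxa4, Hoxa5, Hoxb6 and Hoxd8 the overlap was of spans alone, with no exon base in common. The library protocol names no step that marks the strand, and reads from overlapping exons on opposite strands cannot be told apart without one.

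The loci between the Hox genes included long noncoding RNAs with known names. In cluster A, 2700086A05Rik (Hoxaas3 in RefSeq) extended over 39860 bases against the direction of Hoxa3, Hoxa4, Hoxa5, Hoxa6 and Hoxa7, the most Hox genes spanned by any locus in the clusters. Hoxa11as (Hoxa11os), a locus of 6 transcripts, had a span that overlapped Hoxa11, though not every one of its transcripts did. In cluster C, Gm16258 (Hotair), known for binding a chromatin repressor complex, occupied 3666 bases between Hoxc12 and Hoxc11 and overlapped no Hox gene. In cluster B, Hoxb3os overlapped the spans of Hoxb2 and Hoxb3, and 0610040B09Rik (Hoxb5os) overlapped those of Hoxb5 and Hoxb6. In cluster D, 6720416L17Rik (Haglr) took up 14475 bases between Hoxd3 and Hoxd1, and 1700109F18Rik (Hoxd3os1) overlapped the spans of Hoxd3 and Hoxd8. Gm15053 (Hottip), an RNA known to act on the genes at that end, lay outside cluster A beyond Hoxa13 and was found when 10000 bases were added on each side.

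Of the 12 loci on the opposite strand within the clusters, 5730596B20Rik included, 6 had a start within 1000 bases of the start of a Hox transcript. Among Hox genes, 8 of 39 (20.5%) had a start on the opposite strand that near, including AC160979.1 beside Hoxc13, against 16.6% of all coding genes, so the share was close to that in the genome. In 4 of the 6 the starts pointed away from each other, among them by 84 bases for 6720416L17Rik and Hoxd1, 179 bases for Hoxa11as and Hoxa11, and 843 bases for 5730446D14Rik and Hoxa2. In the other 2 the starts lay inside each other, with distances of -125 bases for 1700109F18Rik and Hoxd3 and -290 bases for 2700086A05Rik and Hoxa6. The Hoxa11as locus had 5 TSS groups and began at base 52195051, inside the first exon of Hoxa11. The 179 bases are those of its transcript ENSMUST00000141850. The transcripts of Hoxa11 and Hoxa2 used for these distances had another position in GENCODE M1. The sequences between the starts at Hoxd1 and at Hoxa11 are shown because transcripts leave from both of their ends. They are printed in the direction of the Hox gene with CG in capitals, and lie at chr2:74600954-74601036 on the plus strand and chr6:52195810-52195987 on the minus strand of mm9.
Hoxd1: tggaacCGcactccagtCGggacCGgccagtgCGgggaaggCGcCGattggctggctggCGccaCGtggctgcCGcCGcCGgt
Hoxa11: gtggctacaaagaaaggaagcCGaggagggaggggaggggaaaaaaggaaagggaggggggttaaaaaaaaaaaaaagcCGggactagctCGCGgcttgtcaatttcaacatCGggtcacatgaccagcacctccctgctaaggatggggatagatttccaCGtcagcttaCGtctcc

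The stretch at Hoxd1 had 11 CG in 83 bases at a GC content of 74.7%, and that at Hoxa11 had 7 in 178 bases at 51.7%. The ratio of CG observed to that expected from the base composition was 0.959 and 0.625. Neither held TATAAA on either strand. Hoxd1 lies at the end of its cluster that is active first in the embryo, and its noncoding partner ran towards Hoxd3, the next Hox gene of the cluster.

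The miRNAs of the clusters fell into 3 families by position and seed, bases 2 to 8, with which a miRNA finds its targets. Their mature sequences, from RefSeq (GRCm38.p6), are shown with the seed in capitals. Each was found letter for letter in the deposited locus on mm9, except miR-196b-5p, whose locus Mir196b was not among the models analysed here and was placed by its RefSeq hairpin at chr6:52180080-52180164 (minus strand) on mm9.
miR-10a-5p: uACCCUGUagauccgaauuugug
miR-10b-5p: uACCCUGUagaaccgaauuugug
miR-196a-5p: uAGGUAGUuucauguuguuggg
miR-196b-5p: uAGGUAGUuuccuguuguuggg
miR-615-5p: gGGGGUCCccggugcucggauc
miR-615-3p: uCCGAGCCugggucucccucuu

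miR-10a-5p and miR-10b-5p shared the seed ACCCUGU and differed at 1 of 23 bases, U12A counted from the 5′ end of miR-10a-5p. miR-196a-5p and miR-196b-5p shared the seed AGGUAGU and differed at 1 of 22, A12C counted from the 5′ end of miR-196a-5p. In both families the difference thus lay outside the seed. miR-615 had seeds of its own on both arms, and Mir196a-1 and Mir196a-2 gave the same miR-196a-5p but different 3p arms.

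The families kept their place relative to Hox numbers. Mir10a lay between Hoxb5 and Hoxb4, 1423 bases before the start of the longest coding transcript of Hoxb4 (the start used for each distance here) and 2923 bases before the core of its homeobox. Mir10b lay 2292 bases before the homeobox core of Hoxd4, within introns of both Hoxd4 and Hoxd3 and in no Hox exon. Both miR-10 loci were therefore upstream of the homeobox of a number 4 gene. The miR-196 loci lay upstream of a number 9 gene, namely Mir196a-1 at 6244 bases before the start of Hoxb9, Mir196a-2 at 3582 bases before that of Hoxc9 and Mir196b at 2711 bases before that of Hoxa9. Mir196a-1 lay between Hoxb13 and Hoxb9 and Mir196a-2 between Hoxc10 and Hoxc9, whereas the place of Mir196b was inside the span of Hoxa9, below the starts of 2 of its transcripts without a protein identifier and over the pseudogene 9930038K12Rik. Hoxa9 and its paralogues belong to the group that patterns the posterior body. Mir615 lay in the intron of Hoxc5, 376 bases before the homeobox core. Clusters A and C had no miR-10 locus and cluster D no miR-196 locus among those analysed here.

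Seed matches of miR-196 in 3′ untranslated regions (UTRs), which a miRNA reads to find a target, took a larger share of Hox genes than of all genes. The 7 letters ACTACCT, read on the sense strand, occurred in the 3′ UTR of 9 of 39 Hox genes (23.1%), against 5.62% of 19689 coding genes with a 3′ UTR, and 14 times in all. Per 1000 bases of UTR there were 0.354 matches in Hox genes and 0.0473 over all genes, and median UTR lengths were 984 and 875 bases. Among the 9 genes were Hoxa4, Hoxa5, Hoxa7, Hoxa9, Hoxb1, Hoxb6, Hoxb7 and Hoxc8, and all 9 were of number 9 or lower, as most of the 39 Hox genes are. Hoxa7 had 4 matches and Hoxc8 3. With the 6 letters CTACCT the genes matched included Hoxa11, Hoxc11 and Hoxd13. The shares for the other families lay closer to those of all genes, with ACAGGGT for miR-10 in 3 Hox genes (7.69%) against 11% of all, GGACCCC for miR-615-5p in 4 (10.3%) against 6.59%, and GGCTCGG for miR-615-3p in 1 (2.56%) against 2.36%. The miR-10 matches included those in Hoxa3 and Hoxd1, genes of low number. No test was made, and a match of 7 letters says nothing of whether a miRNA was present in the NAc or bound there.

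In Hoxb8, whose 3′ UTR held no such seed match, the pairing was far longer. The best ungapped site for miR-196a-5p in its 3′ UTR paired at 21 of 22 bases with the remaining base a G opposite U, at chr11:96146202-96146223 on the plus strand of mm9. No other 3′ UTR among 19552 searched reached more than 17 pairs, and the median best site had 12 pairs over all genes and 13 over Hox genes. For miR-196b-5p the same site had 20 pairs and was again the best of all genes searched. The site is printed with paired bases in capitals, followed by 4 seed matches with the 7 letters in capitals, each with the bases opposite the whole miRNA. For Hoxa7 these are the 2 sites with the longest run of pairs, for Hoxb7 its single site and for Hoxc8 the first of its 3.
Hoxb8: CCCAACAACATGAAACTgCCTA
Hoxa7: agaggcactcccaaACTACCTa
Hoxa7: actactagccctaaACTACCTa
Hoxb7: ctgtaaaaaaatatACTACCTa
Hoxc8: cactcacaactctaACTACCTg

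These seed sites paired with miR-196a-5p at 12, 14, 14 and 12 of 22 bases, 7 to 9 fewer than Hoxb8. They lie at chr6:52165362-52165383 and chr6:52165209-52165230 on the minus strand, chr11:96151098-96151119 on the plus strand and chr15:102823407-102823428 on the plus strand. The site in Hoxb8 fell within the 763 bases that its last exon shares with the first exon of Hoxb7 in the deposited models.

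**Figure D5:**
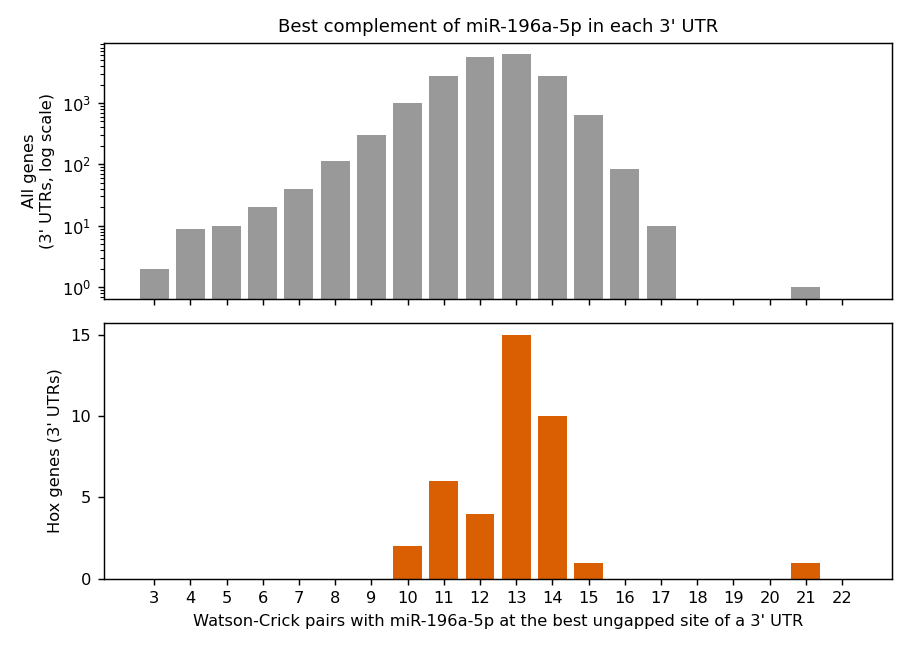
Number of Watson-Crick pairs between miR-196a-5p and the best ungapped site of each 3′ UTR on the x axis, with the number of genes on the y axis for all genes (above, log scale) and for the 39 Hox genes (below). Hoxb8 stands alone at 21 pairs, and the other 38 Hox genes lie between 10 and 15 pairs, in the range of the other genes.

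Promoters of Hox genes were close to other promoters in GC content and had more CG. In RefSeq (GRCm38.p6) 22 of the 39 genes matched, with 24 promoters of 250 bases before to 50 bases after a start, and their median GC content was 57.7% (SD 10.0, n = 24 promoters) against 52.7% for 32851 promoters. At the deposited starts of the longest coding transcripts on mm9 the median was 57.3% (SD 9.98, n = 39 genes) against 55.7% for 22509 coding genes, with a median of 16 CG against 12. The ratio of CG observed to expected was 0.787 against 0.542. Hoxa4 had 47 CG and Hoxa13 45 in 300 bases, and Hoxa3, at the start of a transcript with a distant first exon, had 1. TATAAA, searched on the strand of the gene, was found in 1 of 24 RefSeq promoters (4.17%), against 8.32% of all promoters, and in 4 of 39 windows at deposited starts (10.3%), against 9.05%. These 4 were Hoxb2 with the first letter at -163 from the start, Hoxb6 at 38, Hoxd13 at -209 and Hoxc5 at -31, where a TATA box usually lies.

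Related genes outside the clusters were read in the same way. The ParaHox genes, a sister group of the Hox genes that acts in gut, pancreas and brain, were small as well. The 5 described here, Gsx1, Gsx2, Pdx1, Cdx2 and Cdx4, had 2 or 3 exons and spans of 2252 to 9195 bases, and 1 of 5, Gsx2, had 2 TSS groups. Evx1 and Evx2 had 3 exons each, in spans of 4881 and 6567 bases. By contrast, the 9 genes for the cofactors with which Hox proteins bind DNA, among them Pbx2, Pbx3, Pbx4, Meis1, Meis2, Meis3, Pknox1 and Pknox2, had a median of 11 exons and a median span of 138529 bases, and 5 of 9 had 2 or more TSS groups. Meis2 had 17 transcripts in 11 TSS groups, more than any Hox gene.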

How the data were processed

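Poly(A) RNA of pooled NAc was sequenced on Illumina machines. By the study's methods, TopHat placed reads against Ensembl genes of NCBIM37 (mm9) and Cufflinks followed; CASAVA and Cuffdiff are also listed by the submitters, and tool versions were not given in the sources used here. What was analysed is the deposited set of Cufflinks gene models, whose start and end columns are positions on the genome and hold no score or count of any pool; all 624665 exons carry the code of an exact match to the Ensembl reference. The models were read with Python 3.11.15, numpy 2.4.6 and pandas 2.3.3 (figures with matplotlib 3.10.9). A coding transcript was one with a protein identifier, and levels between genes or pools were not compared. Starts were TSS groups, neighbours were taken by 3′ ends, and a read-through transcript was one whose span contains a coding transcript of another Hox gene. Coding frames came from GENCODE M1, in which 76 of 78 Hox transcripts were found, and names and miRNA sequences from RefSeq. Of these 76, 53 had the same position in GENCODE M1, against 86186 of 87158 among all transcripts found there. Starts, ends and gaps given here are those of the deposited models. Named genes were all Hox genes, every other locus in a cluster, the nearest coding gene on each side, and lists of linked, ParaHox and cofactor genes; the members and lists were chosen with earlier results of these data known. The steps were tested on made-up models and sequences with known answers, and 17 of 17 gave them. Cdx1 and some other genes and sequences are not reported here or drawn in the figures.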

Additional observations from a re-analysis of the deposited data

How the results depend on the processing

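No paired analysis was possible because the models hold no values per pool, and for the same reason no replicate could be left out. Of 31 alternatives, 21 left a count within 1.5 times its main value or a measured value within 1 SD. That SD was the spread of single values, 5050 bases for introns with a median of 926. For such medians the limit was too wide to show a dependence. With coding transcripts alone, 7 Hox genes had 2 or more TSS groups in place of 13. Counting shared bases of coding exons gave 7 transcripts in place of 3 read-through transcripts, and 10 of 22 noncoding loci shared no base with a Hox gene. Hox promoters with a TATA box numbered 3 with the letters TATAA (12.5% against 17.5% of all promoters), 4 at the deposited starts (10.3% against 9.05%) and 0 in a window from 100 bases before to 50 after the start (0% against 4.56%), in place of 1. Homeobox identity was 92.5% on codon positions 1 and 2. With 6 letters in place of 7, 15 Hox 3′ UTRs matched miR-196 (38.5% against 24.9% of all genes) and 9 matched miR-10 (23.1% against 30.2%), and with a following A 5 matched miR-196 (12.8% against 1.12%). The order by 3′ ends, gaps between longest transcripts, the deposited starts, the short window for TATAAA, codon positions and the seed lengths were chosen after seeing the data. Identity between whole proteins or homeodomains was not run, since amino acid sequences were not used here. All counts rest on the models of 1 annotation release.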
